A study of Piaractus mesopotamicus with 6 samples.

Results

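The Hippo pathway genes described here are 10 genes measured in pacu (Piaractus mesopotamicus), a fish of South American rivers: the coactivators yap1 and wwtr1, the DNA-binding partners tead1a, tead1b and tead3b, the kinases lats1 and lats2, the angiomotin-like gene amotl2a, and the secreted target genes ccn1 and ccn2a. They were chosen by symbol, ignoring case, and all 10 were present among the 16347 names in the table, with 67 of its 71447 assembled transcripts. The libraries comprised 3 of primary muscle cells, grown in a complete medium of DMEM with 10% fetal bovine serum and 1% antibiotics, and 3 of fast-twitch muscle itself, taken from the epaxial region of fish fed commercial food ad libitum. Both kinds of sample came from wild-type juveniles of 12 to 20 g held at 28 °C. Each cell isolation used the muscle of 12 animals and the tissue that of 6. Time in culture and any sorting of the cells are not given, nor is it stated whether a tissue library holds RNA of several fish. The comparison asks how far cells in a dish keep the transcript pattern of the muscle they came from.

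In the Hippo pathway, the kinases Lats1 and Lats2 phosphorylate the coactivators Yap and Taz, the product of wwtr1, which keeps them out of the nucleus. Unphosphorylated Yap and Taz enter the nucleus and act there with Tead proteins, which bind DNA, on genes such as ccn1, ccn2 and amotl2. In mammals Yap is known to support proliferation of muscle satellite cells, and Tead proteins also bind elements of muscle gene promoters. Phosphorylation and localisation of these proteins were not measured by RNA sequencing, so the values below are transcript levels alone. No sequence of the species was used here, and none is printed.

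Values are normalised read counts, that is reads divided by 1 size factor per library, and a change is the log2 difference of cells minus tissue after adding 1. A gene is said to have risen or fallen where limma gave an adjusted p below 0.05 over all transcripts tested. The whole reads recovered from the table numbered between 105795157 and 115224600 in a cell library and between 118183731 and 124752600 in a tissue library. On the deposited scale 1 read stood for 0.391 to 0.439 in cells and for 1.98 to 2.67 in tissue. The limit that a count of 0 allows, 3 reads, stood for 1.17 to 1.32 in cells and for 5.95 to 8.02 in tissue. Such limits cover counting error only. The scale itself matters for every direction given here: on the deposited scale the median change of all 15496 names tested was 0.59, and after scaling each library to the same total it was 3.06. The labels name separate libraries but not separate animals or cultures, so the p-values speak for the spread between these libraries.

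The cell libraries held few of the fibre's own transcripts and carried those of connective tissue. All 14 skeletal fibre markers fell, and their summed level was 735 to 5312 in cells and 13513900 to 19815800 in tissue. Of 14 fibroblast and tendon markers, 10 rose and 2 fell, with summed levels of 905154 to 1225200 in cells and 333079 to 410185 in tissue. Of 9 myogenic cell markers, 4 rose and 1 fell, with summed levels of 5093 to 5882 in cells and 3031 to 3456 in tissue. Of the defining ones, the satellite cell gene pax7b had 925, 1051 and 1133 in cells, against 428, 538 and 302 in tissue, while the myogenic factor gene myod1 had 39.9, 86.9 and 238 in cells, against 1297, 1069 and 1207 in tissue. Keratins and other epithelial markers rose in 4 of 5 cases, with summed levels of 111077 to 129993 in cells and 14346 to 21156 in tissue. Endothelial markers were mixed, 1 of 9 higher and 5 lower (summed 2285 to 2676 in cells and 2707 to 3845 in tissue), as were smooth muscle and pericyte markers, 3 of 10 higher and 5 lower (summed 51108 to 79831 in cells and 1416610 to 1854870 in tissue). Erythroid, leukocyte and nerve markers fell in all 5, 5 and 4 cases tested, and lcp1, mbpa and plp1b were listed at 0 in every cell library. Summed, these 3 lists reached at most 15.7, 9.22 and 39.1 in a cell library, so rows near 0 there could hardly be called higher. Over all names 30.5% were higher and 21.7% lower, or 79.3% and 8.27% after scaling to equal totals. On that scale endothelial markers were 4 higher and 2 lower, and smooth muscle and pericyte markers 4 and 4. Myogenic cell markers were 6 higher and 0 lower there, and fibroblast and tendon markers 12 and 1. Erythroid, leukocyte and nerve markers were lower there in 5, 5 and 3 cases. In bulk samples fewer cells of a type and less RNA per cell cannot be told apart, and the part of these marker genes in the results below was not tested.

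Of the 10 Hippo genes, 8 were higher in cultured cells than in muscle by their highest transcript, none was lower, and yap1 and lats1 did not pass the test. The 8 include tead1a, which met the filter on low values through the cell libraries and could hardly be called lower. Over all names 30.5% were higher and 21.7% lower by the same test. The median change of the 10 genes was 1.26, beside 0.59 for all names. The 8 genes that rose also had no overlap between the groups, a pattern shown by 40.5% of all names, with 25.8% in the opposite direction. With the transcripts of a name summed, 7 of 10 rose and none fell, with a median of 1.30 beside 0.61 for all names, of which 30.5% rose and 21.3% fell. By sums, too, 8 had no overlap, beside 41% of summed names higher and 24.9% lower without overlap. The gene that differed between these counts was tead1b. After scaling to equal totals all 10 rose, by highest transcript and by sum. On that scale 79.3% of names were higher and 8.27% lower by their highest transcript, and 80.6% and 7.38% by their sum. The count of 8 was 4 without cell library 2 and 4 without cell library 3. It was 6 without cell library 1 or any 1 tissue library.

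**Figure D1:**
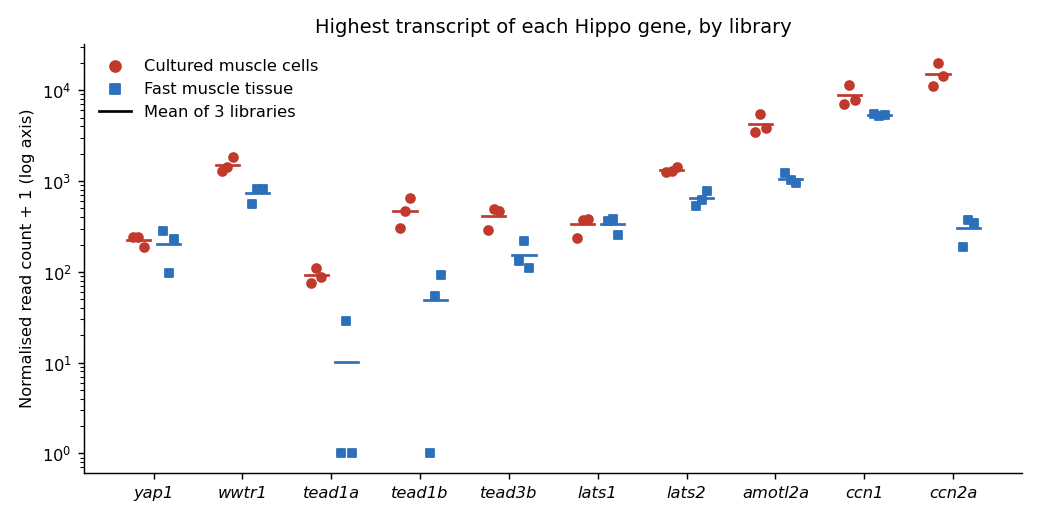
Normalised read count plus 1, on a log axis, of the highest transcript of each of the 10 Hippo genes in every library. Circles are the 3 cultured cell libraries, squares the 3 tissue libraries and bars their means; points at 1 are libraries listed at 0, and only yap1 and lats1 overlap between the groups.

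**Figure D2:**
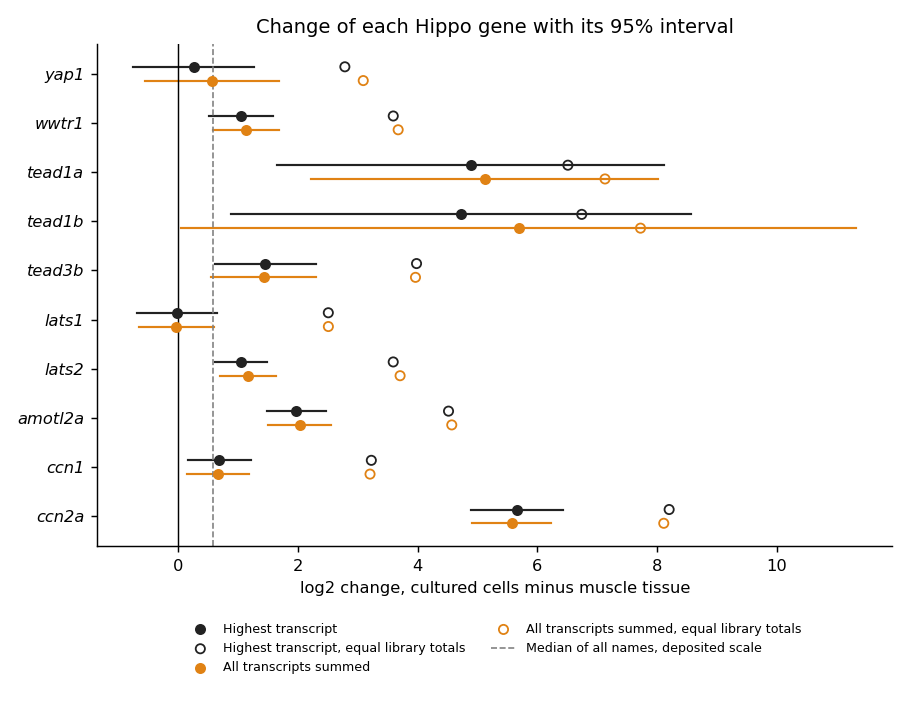
The log2 change, cells minus tissue, of the highest transcript (black) and of all transcripts summed (orange) for each gene, with 95% intervals; open circles give the change after scaling to equal library totals and the dashed line the median of all names on the deposited scale, 0.59. The intervals are widest for tead1a and tead1b, and every open circle lies to the right of its filled one.

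Of the 2 coactivators, wwtr1 rose and yap1 did not pass. The ratio of the pair overlapped between the groups, as given further on. The highest wwtr1 transcript had 1288, 1412 and 1839 normalised counts in cells, against 556, 811 and 822 in tissue. All 3 cell values lay above the highest tissue value, and the change was 1.06 (SE 0.23, limma adjusted p = 0.00792), a 2.07-fold ratio of the means. The highest yap1 transcript had 239, 244 and 187 in cells, against 281, 97.2 and 231 in tissue. These groups overlapped, with tissue library 2 the lowest and tissue library 1 the highest of the 6. The yap1 change was 0.26 (95% interval -0.75 to 1.27, limma adjusted p = 0.632), an interval that holds falls as well as the 1.06 of wwtr1. Without tissue library 2 the change was -0.20. Tissue depth for yap1 was low, at 105, 49 and 116 reads. Summed over its 3 transcripts yap1 averaged 340 ± 69.6 in cells, against 246 ± 110 in tissue (SD, n = 3 each), and again did not pass (limma adjusted p = 0.337).

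All 3 TEAD genes of the set were higher in cells by their highest transcript, but those of tead1a and tead1b rested on very few tissue reads. The tead3b transcript had 287, 489 and 468 normalised counts in cells, against 131, 218 and 109 in tissue. Its groups did not overlap, and it rose by 1.46 (SE 0.35, limma adjusted p = 0.0133), a call that ended without cell library 2 (limma adjusted p = 0.0632) or cell library 3 (limma adjusted p = 0.0593). The tead1a transcript had 74.3, 110 and 87.6 in cells, against 0, 27.8 and 0 in tissue. In reads these were 190, 251 and 201 in cells, against 0, 14 and 0 in tissue, so all of its tissue signal came from library 2. Like the tead1a sum, it met the filter on low values through the cell libraries. It could hardly be called lower, so its call says little for a direction. Its change of 4.88 (SE 1.36, limma adjusted p = 0.0233) was 6.50 without tissue library 2 and 4.08 without tissue library 1 or 3. It also moved with the pseudocount, to 5.55 at 0.5 and 3.34 at 5, and the ratio of means was 9.80. The sum's change was 4.08 at a pseudocount of 5, with a ratio of means of 17.98. Of the 6 fits of the highest transcript with 1 library left out, only that without tissue library 2 passed. The others gave a limma adjusted p of 0.0533 to 0.0833. Summed over 3 transcripts tead1a averaged 199 ± 36.7 in cells, against 11.0 ± 14.7 in tissue (SD, n = 3 each), and rose by 5.12 (limma adjusted p = 0.0121, or 0.0508 without cell library 2), at 6.29 without tissue library 2 and 3.87 without tissue library 3.

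The tead1b transcript had 303, 471 and 643 normalised counts in cells, against 0, 53.6 and 91.5 in tissue. Each of the 8 tead1b transcripts was listed at 0 in tissue library 1, where 3 reads would have been worth 8.02. The highest transcript rose by 4.72 (SE 1.62, limma adjusted p = 0.0488), close to the threshold, and the summed transcripts did not pass, with a change of 5.69 (SE 2.36, limma adjusted p = 0.0836). The highest transcript did not pass with a pseudocount of 0.5 (change 5.06, limma adjusted p = 0.0682), TMM factors (0.0564) or upper quartile scaling (0.0516). At a pseudocount of 5 its change was 3.91 and it passed (limma adjusted p = 0.0136). The sum passed with a pseudocount of 5 (change 4.91, limma adjusted p = 0.0435), with voom weights (0.0244) and with a replicate block (0.0418). The ratio of means was 9.77 for the highest transcript and 9.85 for the sum, less than these log2 changes amount to, since libraries at 0 weigh heavily on the log scale. Without tissue library 1 the change was 2.67 for the highest transcript and 2.68 for the sum, and both passed (limma adjusted p = 0.003 and 0.00169). The highest transcript did not pass without cell library 1, 2 or 3 or tissue library 2 (limma adjusted p = 0.109, 0.135, 0.144 and 0.0578), and its change was 5.55 without tissue library 2 and 5.94 without tissue library 3. All 8 tead1b transcripts and 5 of the 6 tead3b transcripts, the highest included, fall in the same cluster of the assembly. Whether the counting split reads between these related genes was not tested.

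A further TEAD gene, TEAD4, moved the other way and is named here after its values were seen. Its highest transcript had 158, 233 and 408 normalised counts in cells, against 682, 1650 and 1486 in tissue. It fell by 2.26 on the log2 scale (SE 0.45, limma adjusted p = 0.00595), without overlap between the groups, but stood at 0.27 and did not pass after scaling to equal totals (limma adjusted p = 0.632). Ratios within a library do not depend on that scale. The summed tead1b value over that of TEAD4 was 4.31, 4.92 and 3.87 in cells, against 0, 0.0863 and 0.138 in tissue. For tead3b over TEAD4 the ratio was 1.55, 1.91 and 1.101 in cells, against 0.217, 0.115 and 0.0600 in tissue. These ratios also carry the unequal lengths of the transcripts, which do not cancel between the genes. Between the groups they cancel only where a gene's mix of transcripts is the same in both.

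Of the LATS kinases, which phosphorylate the coactivators, lats2 rose and lats1 did not pass. The highest lats2 transcript had 1242, 1295 and 1435 normalised counts in cells, against 535, 623 and 768 in tissue. The groups did not overlap, and lats2, itself a known target of Yap in mammals, rose by 1.06 (SE 0.18, limma adjusted p = 0.00314), a call kept in all 17 alternatives. The highest lats1 transcript had 238, 371 and 385 in cells, against 364, 385 and 255 in tissue. These values overlapped, and the change was -0.02 (95% interval -0.69 to 0.65, limma adjusted p = 0.953). None of the 10 lats1 transcripts passed the test, their changes running from -0.35 to 0.75. Scaled to equal totals lats1 stood at 2.51, below the median of 3.06 for all names on that scale, as its -0.02 was below 0.59 on the deposited one.

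The angiomotin-like gene amotl2a, whose product binds Yap at cell junctions and whose gene is a Yap target in mammals, rose about 4-fold. Its highest transcript had 3509, 5430 and 3816 normalised counts in cells, against 1214, 1022 and 957 in tissue. The lowest cell library was well above the highest tissue library, with a change of 1.98 (SE 0.21, limma adjusted p = 0.000304) and a 3.99-fold ratio of the means. Its paralog amotl2b had 1734, 3148 and 2328 in cells, against 2287, 1295 and 911 in tissue, and did not pass (change 0.74, limma adjusted p = 0.14), though it did without tissue library 1 (limma adjusted p = 0.0248). The related amot, named after its values were seen, had 2502, 2465 and 2440 in cells, against 495, 357 and 346 in tissue, and rose by 2.64 (limma adjusted p = 6.63e-05).

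Of the CCN genes, which encode secreted matricellular proteins, ccn2a, the connective tissue growth factor gene, had the largest ratio of means among the 10, by highest transcript and by sum. Its highest transcript had 11176, 19740 and 14383 normalised counts in cells, against 187, 367 and 348 in tissue. Cells exceeded tissue by a 50.2-fold ratio of means, with a change of 5.67 (SE 0.32, limma adjusted p = 3.3e-05) that lay between 5.36 and 5.86 when any 1 library was left out. For ccn1, also known as cyr61, the highest transcript had 6985, 11514 and 7825 in cells, against 5411, 5157 and 5399 in tissue. Cell library 2 was the highest and the tissue libraries lay close together. The ccn1 change of 0.69 (SE 0.22, limma adjusted p = 0.0396) was near the median of all names, 0.59. It did not pass without cell library 2 (change 0.47, limma adjusted p = 0.118), cell library 3 (0.0806) or tissue library 1, 2 or 3 (0.0585, 0.085 and 0.0806). Nor did it pass with TMM factors (change 0.60, limma adjusted p = 0.0528) or upper quartile scaling (change 0.60, limma adjusted p = 0.0635). The paralogs ccn2b and ccn1l1 were also far higher in cells: ccn2b had 6156, 13968 and 9056 in cells, against 139, 107 and 99.5 in tissue, a change of 6.32 (limma adjusted p = 2.1e-05). For ccn1l1, named after its values were seen, the change was 5.62 (limma adjusted p = 0.000921), or 4.70 without tissue library 3. Another paralog, ccn1l2, went the other way, with a change of -2.42 (limma adjusted p = 0.0415), as given further on.

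Ratios of paired genes within a library do not depend on the library's scaling factor, except that the log2 ratios tested and plotted have 1 added to each sum, which matters where a sum is at or near 0, as for tead1a and tead1b in tissue. For ccn1 over ccn2a, summed over transcripts, the ratio was 0.256, 0.247 and 0.234 in cells, against 9.79, 5.92 and 6.87 in tissue. The groups lay far apart, with little spread among the cell libraries. On the log2 scale the difference was -4.91, with -2.03 ± 0.07 in cells, against 2.88 ± 0.37 in tissue (SD, n = 3 each). For lats1 over lats2 the ratio was 0.450, 0.634 and 0.638 in cells, against 1.78, 1.55 and 0.801 in tissue, a log2 difference of -1.20. For yap1 over wwtr1 the ratio was 0.0749, 0.0685 and 0.0344 in cells, against 0.134, 0.0384 and 0.112 in tissue, and the groups overlapped. For tead1b over tead3b it was 2.78, 2.57 and 3.52 in cells, against 0, 0.748 and 2.30 in tissue. Exact two-sided permutation tests over 6 pairs, which also took in tead1a over tead1b and over tead3b, gave p = 0.1 for the 4 pairs without overlap, the smallest that 3 against 3 allows, and 0.15 after Benjamini-Hochberg adjustment. For yap1 over wwtr1 the exact permutation p was 0.4 and for tead1a over tead1b it was 0.8. The design could not pass the threshold for any pair, so these p-values say nothing for or against a difference.

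**Figure D3:**
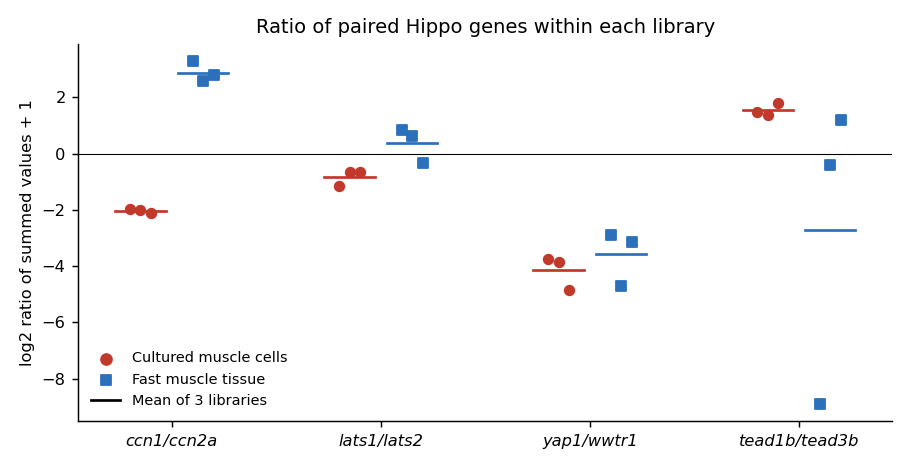
The log2 ratio of the summed values, plus 1, of 4 pairs of Hippo genes in each library; circles are cultured cells, squares tissue and bars the means. The ccn1 to ccn2a ratio is below 0 in all cell libraries and above 0 in all tissue libraries, the yap1 to wwtr1 ratios overlap, and the lowest tead1b to tead3b point is tissue library 1, where tead1b was listed at 0.

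Taking every transcript, 47 of the 67 passed the test as higher in cells, none as lower, and 20 did not pass, while 27.4% of all transcripts tested were higher and 19.7% lower. All 67 passed the filter on low values. Some did so through the cell libraries alone, such as those of tead1a, and these could hardly be called lower. Transcripts of 1 assembled gene share reads and are not independent, and most moved together: the 7 of wwtr1 rose by 0.95 to 1.51, the 4 of lats2 by 1.06 to 1.88, and the 10 ccn2a transcripts of its main assembled gene by 5.44 to 6.77. In wwtr1, amotl2a and ccn1 the highest transcript held a like share of its gene's total in both groups. The share was 25.1% in cells and 26.5% in tissue for wwtr1 and 39.4% in cells and 40.9% in tissue for amotl2a. For ccn1 it was 37.3% in cells and 36.7% in tissue.

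In yap1 the mean shares differed more, but those of single libraries overlapped between the groups. The highest transcript held a mean of 66.3% of the yap1 total in cells and 82.7% in tissue. In tissue library 1 it held all of the total, from 105 reads. In tissue library 3 it had 231 of 334, and in cell library 3 it had 187 of 260. A second yap1 transcript had 124, 114 and 61.4 normalised counts in cells, against 0, 25.8 and 103 in tissue, and did not pass (limma adjusted p = 0.195). The third had 21.5, 17.996 and 11.8 in cells and was listed at 0 in every tissue library. It met the filter on low values through the cell libraries alone, so it could only be called higher or not pass. Its call as higher (limma adjusted p = 0.000337) therefore says nothing for a direction. Against 3 reads per tissue library, its cell values were at least 2.57-fold higher. A tead1a transcript, too, had no reads in any tissue library, and its cell values were at least 3.22-fold higher on the same basis. In tead3b the transcript with the second largest tissue share, 30.5% there and 19.2% in cells, had 137, 278 and 269 in cells, against 198, 135 and 71.6 in tissue, and did not pass (limma adjusted p = 0.199).

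Among the names for ccn1, ccn2a and amotl2a, 4 minor transcripts from further assembled genes had negative changes, and none of them passed. The ccn1 one had 0, 52.7 and 22.2 normalised counts in cells, against 160, 43.6 and 77.6 in tissue (change -2.94, limma adjusted p = 0.145). The amotl2a one had 0, 11.4 and 8.28 in cells, against 69.5, 7.93 and 27.8 in tissue (change -2.43, limma adjusted p = 0.141). The 2 of ccn2a changed by -2.31 and -2.28 (limma adjusted p = 0.133 and 0.161). All 4 were listed at 0 in cell library 1, and each held at most 0.092% of its gene's total in cells and at most 1.54% in tissue.

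**Figure D4:**
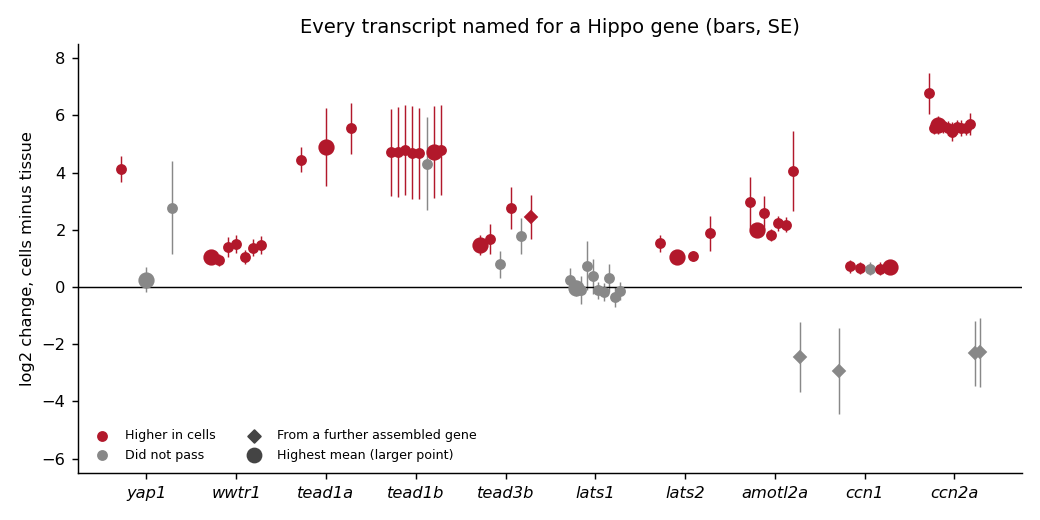
The log2 change, cells minus tissue, with its SE, of all 67 transcripts named for the 10 Hippo genes; red points rose, grey points did not pass, diamonds come from a further assembled gene and the larger point is the highest transcript. The 10 lats1 transcripts scatter around 0, and the 4 diamonds of ccn1, ccn2a and amotl2a lie below 0 while the main transcripts of those genes lie above it.

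Other regulators of the pathway, from kinases and scaffolds upstream to TEAD cofactors, moved in both directions. Of 65 tested, 32 rose (49.2%), 8 fell (12.3%) and 25 did not pass, beside 30.5% higher and 21.7% lower over all names, and the list's median was 1.31 beside 0.59. Rows at or near 0 in 1 group, such as vgll2b and tnikb in cells and nf2a in tissue, entered through the other group alone, which fixed their direction. The count of rises was 20 without cell library 3, and after scaling to equal totals 58 were higher and 4 lower, beside 79.3% higher and 8.27% lower over all names, with a median of 3.67 beside 3.06. Several core components, named after their values were seen, were among them: the Hippo kinase gene stk3 averaged 785 ± 63.1 in cells, against 165 ± 98.1 in tissue (SD, n = 3 each), a change of 2.48 (limma adjusted p = 0.00681), or 1.86 without tissue library 1. The Lats cofactor genes mob1a and mob1ba rose by 2.09 and 1.92 (limma adjusted p = 0.00322 and 0.00365), while the scaffold gene sav1 averaged 473 ± 32.5 in cells, against 398 ± 94.9 in tissue (SD, n = 3 each), and did not pass (change 0.27, limma adjusted p = 0.359). Of the merlin genes, nf2a had 32.5, 26.3 and 26.6 normalised counts in cells, against 0, 3.97 and 0 in tissue, from 2 tissue reads in all. It met the filter on low values through the cell libraries alone, so it could only be called higher or not pass (limma adjusted p = 0.00432). The nf2a change of 4.10 moved to 4.80 at a pseudocount of 0.5 and to 2.46 at 5. The paralog nf2b did not pass (change 0.66, limma adjusted p = 0.0644), though it did without tissue library 2 (limma adjusted p = 0.0405).

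The 14-3-3 genes ywhaba and ywhaz, whose proteins hold phosphorylated Yap in the cytoplasm, had, with amotl2b, the highest mean counts of the list. In ywhaba there were 4900, 6052 and 5680 normalised counts in cells, against 1129, 924 and 1112 in tissue, a change of 2.39 (limma adjusted p = 6.15e-05). In ywhaz there were 3695, 5196 and 5518 in cells, against 484, 649 and 652 in tissue, a change of 3.002 (limma adjusted p = 7.54e-05). On the deposited scale the largest called changes in this list were mostly falls, several of them in rows near 0 in cells that could only fall. The TEAD cofactor gene vgll2b, of a family known for a role in muscle, had 0, 5.27 and 0 in cells, against 1145, 567 and 1152 in tissue, and fell by 8.95 on the log2 scale (limma adjusted p = 0.000222), with a change of -9.83 without cell library 2. It met the filter on low values through the tissue libraries alone, so it could only be called lower or not pass. The highest tnikb transcript, which entered in the same way, had 0, 0 and 0 in cells, against 893, 434 and 282 in tissue. It was at least 424-fold lower in cells against 3 reads per library, and all tnikb transcripts summed changed by -3.53 (limma adjusted p = 0.00318). The STRIPAK gene strip2 changed by -8.05 (limma adjusted p = 0.000147), a size that moved with the pseudocount, to -8.61 at 0.5 and -6.36 at 5. Such a shift marks cell values near 0, so strip2 too entered through the tissue libraries and could hardly be called higher. The kinase gene map4k2 changed by -4.81 (limma adjusted p = 0.00186), or by -5.40 without cell library 1. The apoptosis regulator gene pawr rose by 4.75 (limma adjusted p = 2.35e-05).

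Genes known as Yap and Taz targets in mammals, with their fish paralogs, were higher in cells in 24 of 37 cases tested, lower in 2, and did not pass in 11. These are 64.9% higher and 5.41% lower, beside 30.5% higher and 21.7% lower over all names. Their median was 3.42, or 3.14 with birc5a at its bound, beside 0.59 for all names, and 5 of the 37 also stand in the regulator list. The 24 include birc5a, which met the filter on low values through the cell libraries alone and could only be called higher or not pass. After scaling to equal totals 36 were higher and none lower, beside 79.3% higher and 8.27% lower over all names, with a median of 5.48 beside 3.06. The matrix gene thbs1a had 59447, 78758 and 71942 normalised counts in cells, against 1236, 1406 and 1840 in tissue, a change of 5.56 (limma adjusted p = 1.16e-05). The ankyrin repeat gene ankrd1a, a stress-responsive muscle gene, had 1150, 3069 and 2447 in cells, against 10.7, 67.4 and 77.6 in tissue. It rose by 5.69 (limma adjusted p = 0.000923), or 4.81 without tissue library 1.

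The actin-binding gene tagln and the matrix gene ccdc80 changed by 4.91 and 4.79 (limma adjusted p = 3.45e-05 and 2.23e-05). Such genes are also expressed by fibroblasts and smooth muscle cells, and tagln stands in the smooth muscle marker list given above too. The fibroblast and tendon markers rose in 10 of 14 cases in the same libraries, and their part in the target list was not tested. The division genes anln and birc5a were also in this list. In anln, which had 1579, 1951 and 1855 in cells, against 0, 15.9 and 11.9 in tissue, the change was 8.22 (limma adjusted p = 0.000666), or 6.92 without tissue library 1 and 8.96 without tissue library 2. For birc5a, listed at 0 in all tissue libraries, cells were at least 8.81-fold higher. The 2 genes that fell, named after their values were seen, were igfbp3 and ccn1l2. The highest igfbp3 transcript changed by -1.42 (limma adjusted p = 0.00573), its sum by 0.30 without passing (limma adjusted p = 0.354), and after scaling to equal totals the transcript stood at 1.11. For ccn1l2 the change was -2.42 (limma adjusted p = 0.0415), and with 1 library left out it ended in 4 of 6 cases, those without cell library 1 or 2 and those without tissue library 2 or 3 (limma adjusted p = 0.127, 0.158, 0.0549 and 0.0806). Its change was -3.07 without cell library 3.

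**Figure D5:**
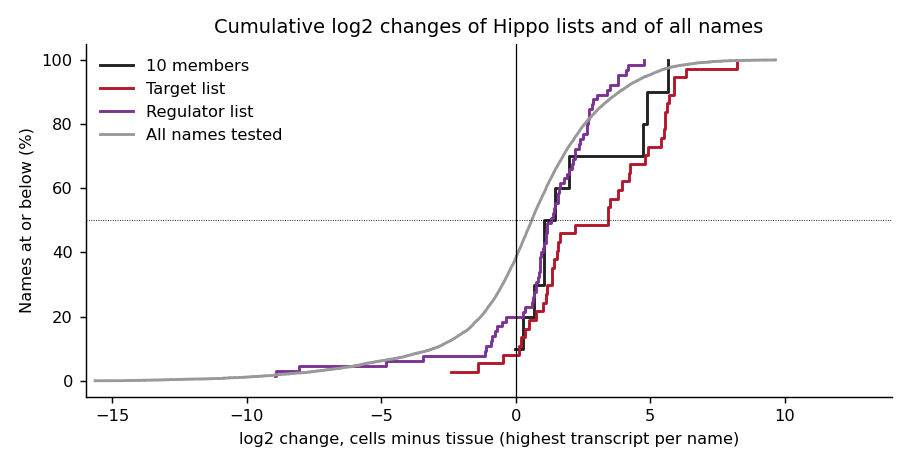
Cumulative share of names, in percent, at or below each log2 change, cells minus tissue, for the 10 Hippo genes, the target list, the regulator list and all names tested, with 1 transcript per name. The target curve crosses 50% at 3.42, the regulator curve at 1.31 and the curve of all names at 0.59.

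The names whose pattern over the 6 libraries lay nearest to that of the highest yap1 transcript, by Euclidean distance on the log2 scale after subtracting each name's mean, were ddb2 (distance 0.240), cdk5rap1 (0.302) and piga (0.326). In ddb2 the values were 272, 324 and 234 in cells, against 353, 139 and 286 in tissue. As in yap1, tissue library 1 was the highest and tissue library 2 the lowest of the 6, a likeness that follows from choosing by distance. Whether these genes are regulated together was not tested.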

How the data were processed

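Per the labels' protocols, TRIzol extracts were made into stranded poly(A) libraries. The submitters' processing notes list, without role or order, GRCz11, Bowtie2, DESeq2, Trimmomatic and FastQC 0.11.8. How reads were counted, and whether 1 read could count for several transcripts, is not stated there. The deposited table, by the authors, holds normalised read counts per assembled transcript, and 100% of its values were whole multiples of 1 read within 0.01. Counts of replicate pairs differed beyond sampling noise, with a chi-square over its degrees of freedom of 52.6 to 215.4. Only symbols, not sequences, tied transcripts to genes.

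The changes were fitted by limma 3.58.1 (R 4.3.3) to log2(value + 1) of all 6 libraries, cells minus tissue, with a trended prior, 4 residual and 2.93 prior degrees of freedom (2.65 for sums) and Benjamini-Hochberg adjustment. Rows with 10 or more in at least 3 libraries entered, which gave 65662 transcripts, 15496 names by their highest transcript and 15714 summed names. A row at or near 0 in every library of a group entered through the other group alone, which fixed its direction. Adding 1 understates changes of low genes, but a library at 0 beside others of its group above 0 can make the change larger than the ratio of means. Ratios and figures used Python 3.11.15 with scipy 1.17.1 and matplotlib 3.10.9. The 10 genes, the lists and the rule for named genes were chosen with earlier results of these data known; the rule named all 10 genes and, per list, the 5 largest called changes without overlap and the 3 highest means. A result for 1 gene so named is not reported here. Alternatives were pseudocounts of 0.5 and 5, no filter, a filter of 50, equal totals, TMM and upper quartile scaling, a replicate block, a robust prior, summing, and leaving out each library over the same transcripts. The planned count models were not run, and voom weights on recovered reads, chosen after the data were seen, took their place.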

Additional observations from a re-analysis of the deposited data

How the results depend on the processing

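Under equal library totals, counts of higher and lower features were 51022 and 5208 for transcripts, 12291 and 1281 for names, 12659 and 1160 for summed names, 58 and 4 for the regulator list, and 0 lower in the target list, while lats1 turned to 2.51 (2.51 summed), TEAD4 to 0.27 and igfbp3 to 1.11. TMM and upper quartile factors lay close to the deposited ones and left 6 of the 10 Hippo genes higher. The target list's 2 lower genes became 1 with a pseudocount of 0.5, a filter of 50, a robust prior or the replicate block. Same-numbered libraries deviated together at r = -0.063, -0.045 and -0.017, and differently numbered ones at -0.028 to 0.058. No pairing by replicate number was seen, which cannot exclude that same-numbered libraries shared fish. With the block 17062 transcripts were higher and 11855 lower, 7 Hippo genes rose, ccn1 did not pass (limma adjusted p = 0.0761) and summed tead1b did (0.0418). With 1 library left out, higher transcripts ranged from 11964 (without cell library 2) to 20095 and lower ones from 10750 to 13686, higher names from 3246 to 5207 and lower ones from 2832 to 3535. Higher Hippo genes ranged from 4 to 6 (summed 4 to 7), regulators higher from 20 to 37, and targets lower from 1 to 2. Of the genes that did not pass, lats1 ranged from -0.21 to 0.20 (summed -0.22 to 0.19), above 0 without cell library 1, tissue library 1 or tissue library 2, and yap1 from -0.20, without tissue library 2, to 0.56. In wwtr1, lats2, ccn2a and amotl2a the call was kept in all 17 alternatives for the highest transcript and all 16 for the sum. The highest transcripts of tead1a, tead1b and yap1 had few tissue reads, and that of tead1b was listed at 0 in tissue library 1. How far counting error, rather than differences between libraries, made up their spread was not tested.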

Other observations

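Other members of the CCN family, which encode secreted matricellular proteins like ccn1 and ccn2a, were looked up after their values were seen. The highest ccn4a transcript had 6785, 9202 and 6203 normalised counts in cells, against 1062, 621 and 869 in tissue, a change of 3.13 (limma adjusted p = 0.000109). In ccn4b the change was 3.72 (limma adjusted p = 2.77e-05) and in ccn5 3.07 (limma adjusted p = 0.000286), both without overlap between the groups. In ccn6 the values were 35.2, 77.7 and 72.8 in cells, against 650.01, 534 and 549 in tissue, and it fell by 3.28 on the log2 scale (limma adjusted p = 0.00035). After scaling to equal totals ccn6 stood at -0.76 and did not pass (limma adjusted p = 0.0832), while the other 3 stayed higher in cells. On that scale 79.3% of all names were higher and 8.27% lower.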
